A study of Mus musculus with 18 samples.

Results

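Chemokines are small secreted proteins that attract leukocytes, and fibroblasts are one of their sources in injured or infected tissue. The mRNAs of 10 chemokine genes were followed here in mouse embryonic fibroblasts (MEFs): Ccl5, Cxcl10, Ccl2, Ccl7, Ccl9, Cxcl1, Cxcl5, Cxcl12, Cxcl16 and Cx3cl1. All 10 were found by gene name among the 51499 assembled loci of the series. They were selected on measured values, because the list was drawn up around Ccl5 by someone who knew levels from these same samples, so the levels that follow are descriptions without a test.

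The experiment asked whether AGO2, the Argonaute protein that cuts mRNAs guided by small RNAs, lowers mRNAs when the endoplasmic reticulum (ER) is stressed. MEF cells labelled Ago2+/+ or Ago2-/- received the solvent DMSO, tunicamycin, which blocks N-linked glycosylation, or 500 nM thapsigargin, which empties ER calcium, and 18 RNA-seq libraries were made, 3 for each of the 6 combinations. Besides the name DCR1 in some titles, given below, no other allele or agent is named in the labels. Per the study's methods, the MEFs of each genotype were a line received from another laboratory, so the libraries of a group are repeats of that line. The groups labelled Ago2+/+ carry the name DCR1 in their titles, and for 4 libraries the labels disagree on genotype. These are 1 library in each Ago2+/+ group and 1 in Ago2-/- DMSO, grouped here by title. The values are FPKM (fragments scaled for transcript length and sequencing depth), of which 1 value per group, pooled over its libraries, was deposited. There is therefore no replicate spread, no SD and no p-value for any difference below, and the depth of the libraries is not known.

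The targeted gene was examined first. Ago2 stood at 22.1, 5.75 and 17.0 FPKM in the Ago2+/+ groups under DMSO, tunicamycin and thapsigargin, and at 5.61, 15.5 and 20.7 FPKM in the Ago2-/- groups in the same order. It was thus low in 1 group of each labelled genotype, and the levels went against the labels. Whether the Ago2 reads of a group labelled Ago2-/- fall outside a deleted part was not tested, since the table has 1 value per locus. Per the study's reporting form, its cell lines were not authenticated, but Ago2-/- MEFs were checked by western blot for loss of the AGO2 protein; whether the sequenced cultures were among those checked is not stated there. Every group is called below by its label only, and each direction rests on those labels.

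The fibroblast label was checked against marker genes. Of 12 fibroblast markers, 10 reached at least 1 FPKM in some group. Vim, a mesenchymal intermediate filament, ranged from 951.6 to 2634 FPKM and the matrix gene Fn1 from 46.4 to 599.5. Thy1 was listed at 0 in every group, and Lum never passed 0.0138 FPKM. Dcn, counted among the 10, ranged from 0.0265 to 1.06 FPKM and passed 1 FPKM in Ago2-/- thapsigargin only. The collagen genes Col1a1 (5.97 to 651.1 FPKM), Col1a2 (23.7 to 577.4) and Col3a1 (6.60 to 30.9) varied between groups, as did Pdgfrb (0.540 to 17.9), Postn (0 to 10.1) and Twist1 (10.7 to 33.4). The 11 macrophage and leukocyte markers summed to between 3.87 and 18.0 FPKM, nearly all of it from Cd14 (2.40 to 16.7) and Cd68 (1.13 to 1.82), followed by Csf1r with at most 0.457. The defining leukocyte gene Ptprc never passed 0.0758 FPKM, and Adgre1, Tyrobp and Cd3e were listed at 0. The 7 endothelial markers summed to at most 0.530 FPKM, with Kdr, Pecam1 and Vwf the highest, and the 6 epithelial markers to at most 2.01 FPKM, with Krt14, Krt8 and Krt18 the highest. In such bulk RNA, fewer cells of a type and less RNA per cell cannot be told apart.

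Chemokines are classed by the spacing of their first cysteines into CC, CXC and CX3C ligands, and they act on G protein-coupled receptors of leukocytes. Ccl5 (RANTES) and Cxcl10 (IP-10) draw T cells and natural killer cells and are induced by interferons and by NF-kB. Ccl2 (MCP-1) and Ccl7 (MCP-3) draw monocytes through the receptor CCR2, and Cxcl1 and Cxcl5 draw neutrophils through CXCR2. Cxcl12 (SDF-1) is the CXCR4 ligand that stromal cells make without stimulation. Cxcl16 and Cx3cl1 are made as membrane-bound proteins and released by the proteases ADAM10 and ADAM17.

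Promoter sequence was available for 5 of the 10 genes, Cxcl10, Ccl9, Cxcl1, Cxcl12 and Cx3cl1. The 250 bases before the RefSeq start are shown for 3 of them, because they stand for 3 different courses of the mRNA across the groups described below. The windows are chr5:92348890-92349139 on the minus strand (Cxcl10), chr5:90890995-90891244 on the plus strand (Cxcl1) and chr6:117168285-117168534 on the plus strand (Cxcl12), all from RefSeq on GRCm38.p6. Each reads 5′ to 3′ towards the gene, and capitals mark matches on either strand to an ISRE-like element (GAAANNGAA, which interferon regulatory factors bind) or a kappaB-like element (GGGANNTTC, which NF-kB binds).
Cxcl10: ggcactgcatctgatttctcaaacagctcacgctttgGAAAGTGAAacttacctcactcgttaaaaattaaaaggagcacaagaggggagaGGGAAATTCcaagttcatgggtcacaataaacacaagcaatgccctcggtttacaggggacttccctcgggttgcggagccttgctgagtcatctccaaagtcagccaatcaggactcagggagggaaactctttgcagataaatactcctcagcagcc
Cxcl1: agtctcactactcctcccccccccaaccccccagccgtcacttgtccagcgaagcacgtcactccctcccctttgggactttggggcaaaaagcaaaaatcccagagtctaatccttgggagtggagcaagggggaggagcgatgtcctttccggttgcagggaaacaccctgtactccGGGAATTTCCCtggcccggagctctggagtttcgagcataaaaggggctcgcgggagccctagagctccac
Cxcl12: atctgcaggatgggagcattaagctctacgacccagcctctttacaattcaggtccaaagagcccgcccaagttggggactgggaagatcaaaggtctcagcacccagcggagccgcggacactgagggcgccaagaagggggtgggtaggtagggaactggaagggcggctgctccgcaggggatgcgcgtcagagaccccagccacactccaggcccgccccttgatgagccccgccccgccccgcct
Cxcl10 had an ISRE-like match from 213 to 205 bases and a kappaB-like match from 159 to 151 bases before the start. Cxcl1 had a kappaB-like match on each strand, from 71 to 63 and from 69 to 61 bases before the start, which overlap in a single stretch. Cxcl12 held neither element nor TATAAA, and it was rich in G and C, with 64.4% against a median of 52.4% over all windows and 14 CpG dinucleotides against a median of 6. Among all 32841 promoter windows, 7.13% held an ISRE-like match, 3.23% a kappaB-like match and 12.4% TATAAA on either strand. In the windows not printed, TATAAA matched 3 times in Ccl9 and once in Cx3cl1. The Ccl9 matches from 94 to 89 and from 92 to 87 bases before the start, on opposite strands, overlap in a single stretch. A match is a description of letters and not a binding site, and no binding was measured.

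Ccl5, on chromosome 11 (83525778 to 83530518, minus strand, GRCm38), had a wide range. In the Ago2+/+ groups its level was 41.3 FPKM with DMSO, 0.302 with tunicamycin and 2.30 with thapsigargin. In the Ago2-/- groups it was 0.712 with DMSO, 4.61 with tunicamycin and 27.3 with thapsigargin. Ccl5 was thus lower with either stressor than with solvent under the label Ago2+/+, and higher with either under Ago2-/-. Its highest groups were Ago2+/+ DMSO and Ago2-/- thapsigargin. Ago2-/- tunicamycin came next, well below them and nearer to Ago2+/+ thapsigargin. Its highest value was 137 times its lowest. On the log2(FPKM + 0.1) scale used for all differences its range was 6.68, where the median over the 11929 loci whose 6-group mean reached 1 FPKM was 0.80 and the 90th percentile 3.18. Ccl5 stood above 77.1% of those loci in Ago2+/+ DMSO and above 3.28% of them in Ago2+/+ tunicamycin.

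Cxcl10 took the same order of groups as Ccl5. Its values were 26.0, 0.429 and 8.97 FPKM in the Ago2+/+ groups under DMSO, tunicamycin and thapsigargin, and 0.581, 14.2 and 16.0 FPKM in the Ago2-/- groups. Unlike Ccl5, it stood within 2-fold in 3 groups, Ago2+/+ DMSO, Ago2-/- thapsigargin and Ago2-/- tunicamycin. The gene lies on chromosome 5 (92346638 to 92348889, minus strand) in an assembled interval (92331827 to 92414628) that also holds Art3, Cxcl11 and Gm2673. Cxcl11, a ligand of the same receptor CXCR3, has its own value in the table and never passed 0.0747 FPKM.

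**Figure D1:**
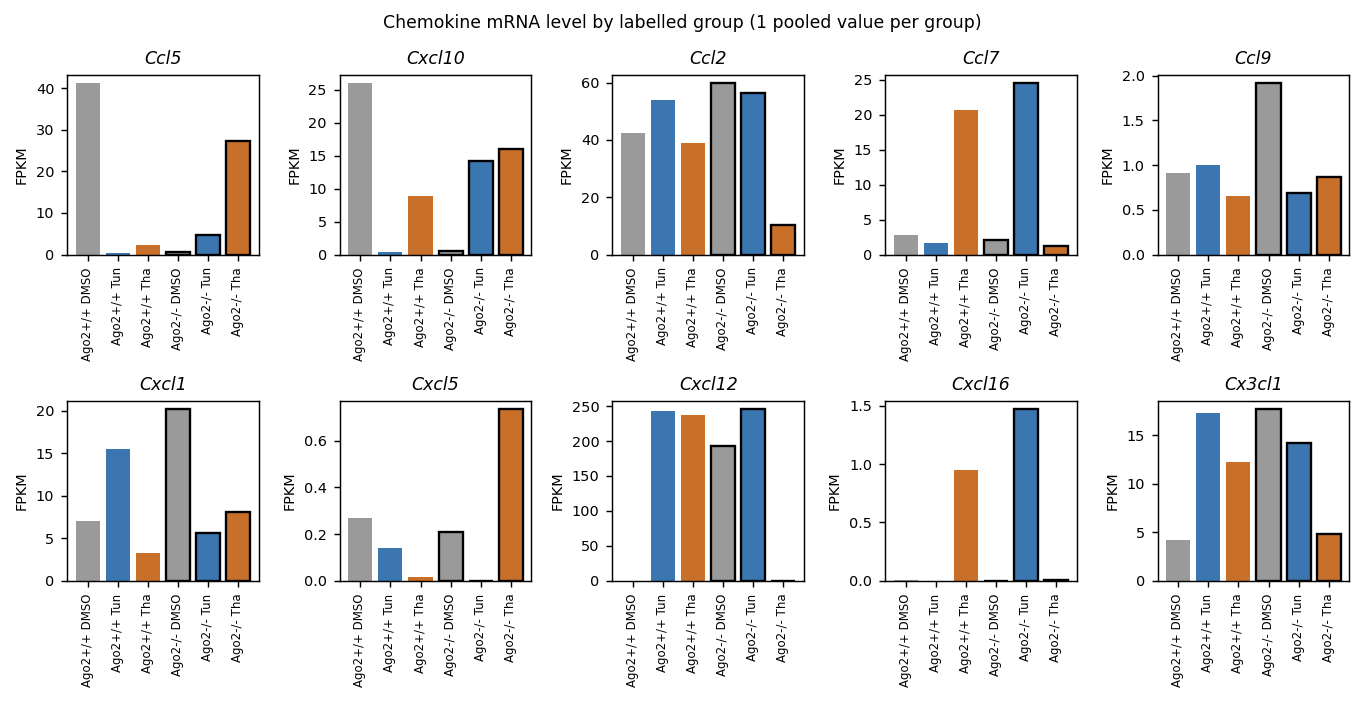
FPKM (y axis, linear and from 0, scaled per gene) of each of the 10 chemokines in the 6 labelled groups (x axis); grey is DMSO, blue tunicamycin (Tun), orange thapsigargin (Tha), black outlines mark the groups labelled Ago2-/-, and each bar is 1 pooled value without error. Ccl5 and Cxcl10 are highest in Ago2+/+ DMSO (41.3 and 26.0 FPKM), and Cxcl12 is near 0 in that group and in Ago2-/- thapsigargin.

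Of the monocyte attractants, Ccl2 was the steadiest and Ccl7 was not. Ccl2 stood at 42.6, 54.1 and 39.1 FPKM in the Ago2+/+ groups under DMSO, tunicamycin and thapsigargin, and at 59.8, 56.6 and 10.3 FPKM in the Ago2-/- groups. A single group, Ago2-/- thapsigargin, was apart, and the other five lay within 1.53-fold of each other. Ccl7 stood at 2.84, 1.63 and 20.6 FPKM in the Ago2+/+ groups and at 2.08, 24.5 and 1.29 FPKM in the Ago2-/- groups. It was high in Ago2+/+ thapsigargin and Ago2-/- tunicamycin, 7.28 times or more above each of the other four groups. Ccl2 (chromosome 11, 82035571 to 82037453, plus strand) and Ccl7 (82045712 to 82047525, plus strand) are neighbours in the chromosome 11 cluster, and the interval of Ccl2 also holds Gm17268. Across the 6 groups their log2 levels had a Pearson r of 0.36, given as a description.

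Ccl9 (MIP-1 gamma), a further CC ligand of that chromosome (83572919 to 83578636, minus strand), was low throughout. Its values were 0.907, 1.00 and 0.656 FPKM in the Ago2+/+ groups and 1.92, 0.692 and 0.870 FPKM in the Ago2-/- groups. The Ago2-/- DMSO group was the highest, and the other five spanned 0.656 to 1.00 FPKM.

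The neutrophil attractants Cxcl1 and Cxcl5 lie in the same cluster on chromosome 5 and differed in level. Cxcl1 (90891241 to 90893115, plus strand) stood at 7.10, 15.5 and 3.33 FPKM in the Ago2+/+ groups and at 20.2, 5.60 and 8.05 FPKM in the Ago2-/- groups. It was highest in Ago2-/- DMSO and Ago2+/+ tunicamycin, the pair in which Ccl5 was lowest. Cxcl5 (90759360 to 90761624, plus strand) never reached 1 FPKM. It was at 0.271, 0.142 and 0.0171 FPKM in the Ago2+/+ groups, and at 0.211, 0 and 0.733 FPKM in the Ago2-/- groups.

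Cxcl12 was either abundant or nearly missing. On chromosome 6 (117168535 to 117181367, plus strand), it stood at 0.0157, 243.7 and 237.3 FPKM in the Ago2+/+ groups under DMSO, tunicamycin and thapsigargin. In the Ago2-/- groups it stood at 193.5, 245.3 and 0.0127 FPKM. The 4 groups with Cxcl12 differed from each other by at most 1.27-fold, and each placed it above 96.1% to 97.2% of those loci. In Ago2+/+ DMSO and Ago2-/- thapsigargin, the groups highest in Ccl5, it lay above 1.90% and 1.71% of them. The number of fragments behind 0.0127 FPKM is not known, so the log2 differences of Cxcl12 against these groups, given below, are set in size by the pseudocount of 0.1 FPKM and show a direction only.

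Of the membrane-bound ligands, Cx3cl1 (fractalkine, chromosome 8, 94772009 to 94782427, plus strand) followed Cxcl12 with a smaller range. It stood at 4.17, 17.2 and 12.2 FPKM in the Ago2+/+ groups and at 17.7, 14.2 and 4.83 FPKM in the Ago2-/- groups. Its low groups, near 4 to 5 FPKM, were those without Cxcl12. Cxcl16 (chromosome 11, 70453983 to 70459984, minus strand, in an interval to 70466202 that also holds Zmynd15) stood at 0.00745, 0 and 0.950 FPKM in the Ago2+/+ groups and at 0, 1.47 and 0.00731 FPKM in the Ago2-/- groups. Like Ccl7, it was highest in Ago2-/- tunicamycin and Ago2+/+ thapsigargin.

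Several pairs of the genes took a like course. As a description over 6 groups, which share libraries between genes, Pearson r of the log2 levels was 0.90 for Ccl5 with Cxcl10, 0.98 for Ccl7 with Cxcl16, 0.97 for Cxcl12 with Cx3cl1 and 0.88 for Ccl9 with Cxcl1, out of 45 pairs. Ccl5 ran against Cx3cl1 (r = -0.94) and Cxcl12 (r = -0.88). Of the 10 genes, 8 averaged 1 FPKM or more over the groups, Ccl9 only just with 1.01, and Cxcl5 (0.229) and Cxcl16 (0.406) did not. Counts of members below are over all 10, and counts of loci over the 11929.

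The total of the 10 mRNAs, in FPKM, was set by Cxcl12. It came to 125.2, 334.0 and 325.5 FPKM in the Ago2+/+ groups under DMSO, tunicamycin and thapsigargin, and to 296.7, 367.1 and 69.3 FPKM in the Ago2-/- groups. Cxcl12 made up between 65.2% and 73.0% of it in 4 groups. In Ago2+/+ DMSO the largest shares were those of Ccl2 (34.0%) and Ccl5 (33.0%), and in Ago2-/- thapsigargin that of Ccl5 (39.3%).

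The first comparison asked what ER stress did in cells labelled Ago2+/+. Under tunicamycin, Ccl5 (log2 difference -6.68) and Cxcl10 (-5.63) were lower than under DMSO, and Cxcl12 (11.0), Cx3cl1 (2.02) and Cxcl1 (1.11) were higher. A difference of at least 2-fold is the count used here. That made 3 of 10 chemokines higher, where 9.61% of loci were, and 2 lower, where 8.29% of loci were. The other five, Ccl2, Ccl7, Ccl9, Cxcl5 and Cxcl16, differed by less than 2-fold. The median difference of the 10 was 0.013, beside 0.0062 over all loci.

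Under thapsigargin in the same label, Ccl5 (log2 difference -4.11) and Cxcl10 (-1.53) were again lower. Ccl7 was higher by 2.82 and Cxcl16 by 3.29, which tunicamycin had not shown. Cxcl12 (11.0) and Cx3cl1 (1.53) were higher too, while Cxcl1 (-1.07) and Cxcl5 (-1.66) were lower. In count, 4 of 10 were at least 2-fold higher, where 9.27% of loci were, and 4 lower, where 7.54% of loci were. The median difference was -0.27, beside 0.012 over all loci. With a pseudocount of 1 FPKM in place of 0.1, Cxcl1 and Cxcl5 fell short of 2-fold, which left 2 lower. Cxcl16, at 0.00745 FPKM under DMSO, fell short as well, so the count of 4 higher does not hold there. Both stressors were set against the same DMSO group, so their differences share it.

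In the cells labelled Ago2-/-, tunicamycin went with more Cxcl10, Ccl7 and Ccl5. Against DMSO, Cxcl10 was higher by 4.39 on the log2 scale, Ccl7 by 3.50 and Ccl5 by 2.54, and Cxcl16, at 0 under DMSO, came to 1.47 FPKM. Cxcl1 (-1.83), Ccl9 (-1.35) and Cxcl5 (-1.63) were lower. These are 4 of 10 higher, where 11.6% of loci were, and 3 lower, where 10.3% of loci were. Ccl2, Cxcl12 and Cx3cl1 moved by at most 0.34. The median difference was 0.13, beside 0 over all loci. With a pseudocount of 1 FPKM, Ccl9 and Cxcl5 fell short and Cxcl1 was the 1 left lower.

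With thapsigargin in the label Ago2-/-, more of the chemokines were lower than higher. Cxcl12 (log2 difference -10.7), Ccl2 (-2.53), Cx3cl1 (-1.85), Cxcl1 (-1.31) and Ccl9 (-1.06) were lower than under DMSO. Ccl5 (5.08) and Cxcl10 (4.56) were higher, as was Cxcl5 (1.42), which stayed under 1 FPKM in both groups. Thus 3 of 10 were higher, where 8.21% of loci were, and 5 lower, where 9.81% of loci were. Of these, Cxcl5 and Ccl9 fell short of 2-fold with a pseudocount of 1 FPKM. The median was -0.85, beside -0.020 over all loci.

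The study looked for mRNAs that fell under stress in Ago2+/+ and rose in Ago2-/- cells. At 2-fold each way and without a test, Ccl5 and Cxcl10 took that course with tunicamycin, 2 of 10 where 4.8% of loci did. With thapsigargin it was taken by Ccl5, Cxcl10 and Cxcl5, 3 of 10 where 2.62% of loci did. Of these, Cxcl5 never reached 1 FPKM, and it fell short of 2-fold under both labels with a pseudocount of 1 FPKM. The opposite course was taken by Cxcl1 with tunicamycin, 1 of 10 where 4.52% of loci did, and by Cxcl12 and Cx3cl1 with thapsigargin, 2 of 10 where 4.13% of loci did. Ccl5 and Cxcl10 met the first pattern with both stressors, 2 of 10 where 0.813% of loci did, and since the list was drawn up around Ccl5, these counts are a description. At 4-fold each way Ccl5 alone, 1 of 10, met it with both stressors. The share of loci that did so at 4-fold was not counted, so this count has no background beside it.

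**Figure D2:**
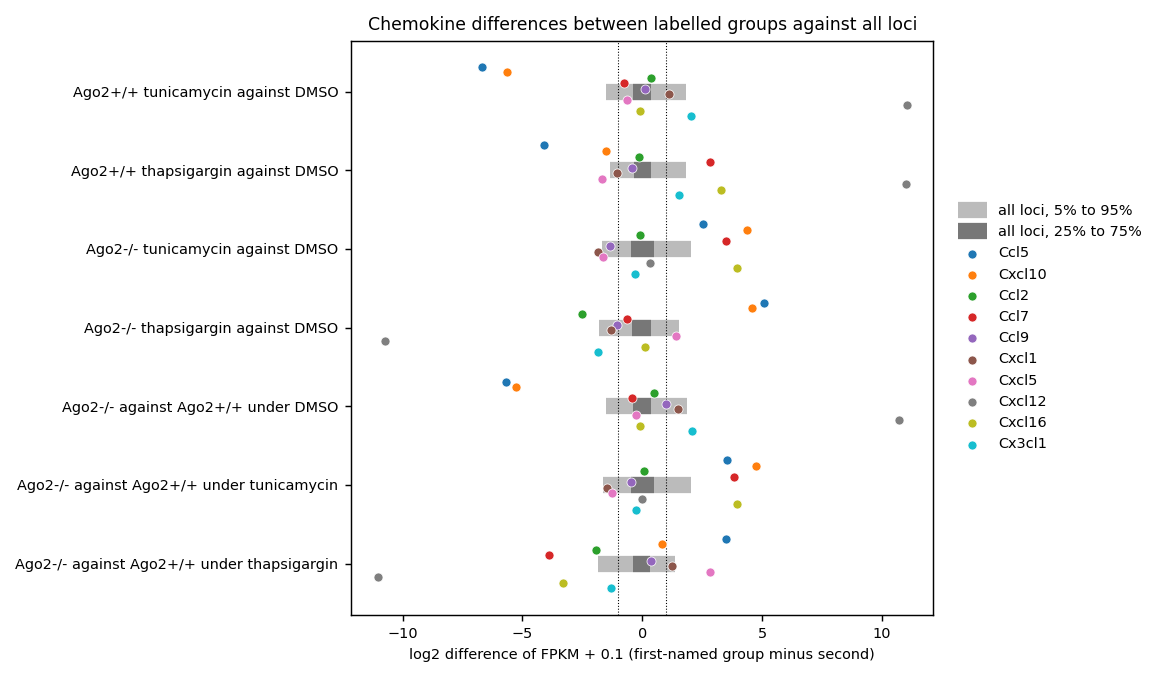
Log2 difference of FPKM + 0.1 between 2 groups (x axis) for each of the 10 chemokines (coloured points) in the 7 comparisons (y axis); bars span the middle of all 11929 loci (25% to 75% dark, 5% to 95% light) and dotted lines mark 2-fold. Ccl5 and Cxcl10 lie left of the dotted lines under stress in Ago2+/+ (Cxcl10 at -1.53 with thapsigargin) and right of them in Ago2-/-, and Cxcl12 lies near 11 or -11 in 5 comparisons.

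The next comparisons set the labelled genotypes side by side within a treatment. Under DMSO, cells labelled Ago2-/- had less Ccl5 (log2 difference -5.67) and Cxcl10 (-5.26) than those labelled Ago2+/+. They had more Cxcl12 (10.7), Cx3cl1 (2.06), Cxcl1 (1.49) and Ccl9 (1.00, just past 2-fold, and just short of it at 0.99 once differences are centred on the median of all loci). In count, 4 of 10 were higher, where 9.66% of loci were, and 2 lower, where 8.37% of loci were. Ccl9 also fell short of 2-fold with a pseudocount of 1 FPKM. The median was 0.19, beside 0.0080 over all loci.

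Under tunicamycin the same contrast had the opposite sign for Ccl5 (3.55), Cxcl10 (4.75) and Cxcl1 (-1.45). Ccl7 (3.83) and Cxcl16 (3.97) were higher too, and Cxcl5 was lower, at 0 against 0.142 FPKM. Cxcl12 was nearly equal, at 245.3 and 243.7 FPKM. Here 4 of 10 were higher, where 11.6% of loci were, and 2 lower, where 9.88% of loci were, with a median of 0.037, beside -0.0028 over all loci. With a pseudocount of 1 FPKM, Cxcl5 fell short and 1 was left lower.

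Under thapsigargin Ccl5 was higher in Ago2-/- by 3.51, while Cxcl10 differed by 0.83, under 2-fold. Cxcl1 (1.25) and Cxcl5 (2.83) were higher as well. Cxcl12 (-11.0), Ccl7 (-3.90), Cxcl16 (-3.29), Ccl2 (-1.92) and Cx3cl1 (-1.32) were lower. That made 3 of 10 higher, where 7.42% of loci were, and 5 lower, where 9.97% of loci were, with a median of -0.48, beside -0.029 over all loci. Cxcl5 and Cxcl16 were under 1 FPKM in both groups, and each fell short of 2-fold with a pseudocount of 1 FPKM. For each of the 10 genes, the sign of the difference between genotype labels was not the same under all 3 treatments.

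Groups that differ in both labels were then compared, because Ago2 had gone against the labels. In 3 such pairs few chemokines were apart. Ago2-/- tunicamycin and Ago2+/+ thapsigargin differed by at least 2-fold in 0 of 10, where 1.58% of loci did either way; Ccl5 was nearest, at 4.61 against 2.30 FPKM, which is 0.97 on the log2 scale with the pseudocount and a ratio of 2.01 without it. With a pseudocount of 0.01 FPKM, Ccl5 and Cxcl5 passed 2-fold and the count was 2. Ago2-/- DMSO and Ago2+/+ tunicamycin differed in 1 of 10, where 1.44% of loci did, and that was Ccl5 at 0.712 against 0.302 FPKM, 1.01 on the log2 scale and short of 2-fold with a pseudocount of 1 FPKM. Between Ago2-/- thapsigargin and Ago2+/+ DMSO, 3 of 10 differed, where 3.58% of loci did: Ccl2 (10.3 against 42.6 FPKM), Ccl7 (1.29 against 2.84) and Cxcl5 (0.733 against 0.271).

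In the other three pairs the chemokines differed widely. Ago2-/- DMSO and Ago2+/+ thapsigargin were apart in 7 of 10, where 20.6% of loci were, Ago2-/- thapsigargin and Ago2+/+ tunicamycin in 6 of 10, where 18.2% of loci were, and Ago2-/- tunicamycin and Ago2+/+ DMSO in 6 of 10, where 17.1% of loci were. The level of Ago2 was close within each of the 3 pairs with few chemokines apart, at 5.61 and 5.75, 15.5 and 17.0, and 20.7 and 22.1 FPKM. Closeness in Ago2 was not limited to these pairs. Under thapsigargin Ago2 stood at 20.7 (Ago2-/-) and 17.0 FPKM (Ago2+/+), with 8 of 10 chemokines apart where 17.4% of loci were. Between Ago2+/+ thapsigargin and DMSO it stood at 17.0 and 22.1 FPKM, with 8 of 10 apart where 16.8% of loci were. In the pair of Ago2-/- tunicamycin and Ago2+/+ DMSO, with 6 of 10 apart, it stood at 15.5 and 22.1 FPKM. Stressor, labelled genotype and the identity of the cultures cannot be told apart as sources of the chemokine differences in these pooled values.

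**Figure D3:**
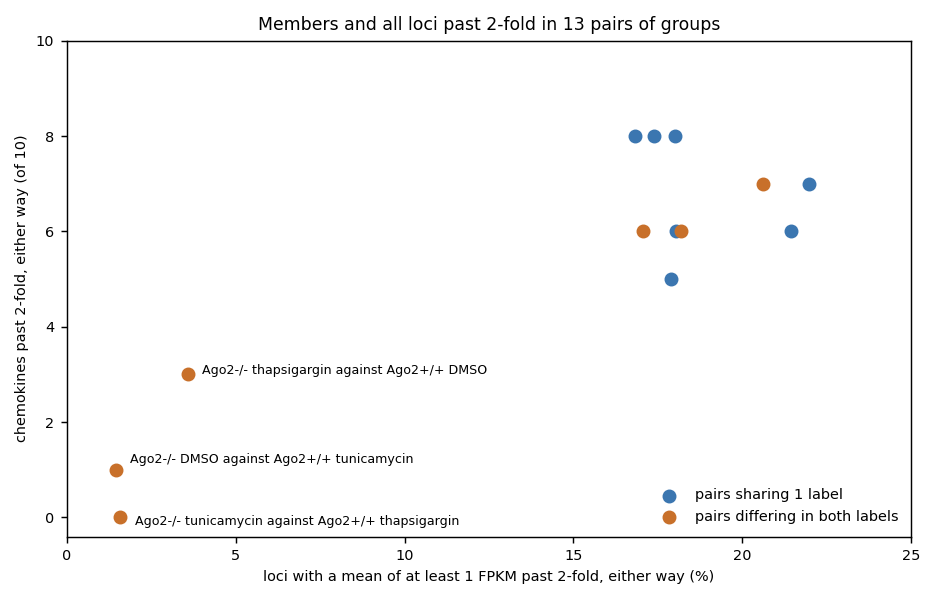
Number of the 10 chemokines that differ by at least 2-fold either way (y axis) against the percentage of 11929 loci that do (x axis), 1 point for each of 13 pairs of groups; blue pairs share a treatment or labelled genotype, orange pairs share neither. The 3 named orange pairs lie at 0, 1 and 3 chemokines with 1.58%, 1.44% and 3.58% of loci, and the other 10 pairs at 5 to 8 chemokines with 16.8% to 22.0% of loci.

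The 5 loci outside the list whose course was most like that of Ccl5 were taken by the root mean square (RMS) difference of centred log2 levels over the 6 groups. They were Apol9a (RMS 0.20), Ifit1 (0.50), Isg15 (0.57), Oasl1 (0.58) and Selenop (0.59), and the first 4 are known as interferon-stimulated genes. By Pearson correlation, or with a pseudocount of 1 FPKM, 2 of these 5 stayed among the nearest 5. Isg15, a ubiquitin-like protein, stood at 39.2, 0.881 and 2.34 FPKM in the Ago2+/+ groups under DMSO, tunicamycin and thapsigargin, and at 1.43, 5.56 and 21.4 FPKM in the Ago2-/- groups. The order of groups was that of Ccl5. Cxcl10, a member, was at an RMS of 1.05 from Ccl5.

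Transcription factors of the interferon and NF-kB pathways were examined from lists. Irf7, which drives interferon genes and is itself interferon-induced, was at 3.86, 0.0575 and 0.303 FPKM in the Ago2+/+ groups and at 0.0159, 1.10 and 2.34 FPKM in the Ago2-/- groups; it was named after its values were seen. Its high and low groups were those of Ccl5. Irf5, on the same list and also named after its values were seen, ran otherwise, at 0.657, 1.57 and 8.74 FPKM in the Ago2+/+ groups and 1.95, 8.16 and 0.509 FPKM in the Ago2-/- groups, lowest in the groups highest in Ccl5. All 9 loci found of the 10 genes on the IRF and STAT list reached 1 FPKM in some group. Irf3 (24.3 to 36.2), Stat3 (20.2 to 28.0), Irf2 (12.9 to 20.8) and Irf9 (10.7 to 19.0, in a locus with Rnf31) varied by less than 2-fold across groups, and Irf1 ranged from 12.4 to 27.8 FPKM. Under tunicamycin against DMSO, 1 of 9 was at least 2-fold higher and 2 lower in Ago2+/+ (median -0.41), where 9.61% and 8.29% of all loci were, and 3 were higher and 0 lower in Ago2-/- (median 0.80), where 11.6% and 10.3% of loci were. Irf7 and Stat2 were the pair lower in the one and higher in the other. Under thapsigargin, 1 was higher and 1 lower in Ago2+/+ (median -0.24), where 9.27% and 7.54% of loci were, and 2 were higher and 2 lower in Ago2-/- (median 0.32), where 8.21% and 9.81% of loci were.

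All 15 NF-kB subunits and feedback genes were expressed. Nfkb2 (80.8 to 122.7 FPKM), Nfkb1 (43.5 to 74.4), Rela (39.9 to 64.5), Chuk (37.7 to 56.6), Nfkbia (25.4 to 40.2) and Ikbkb (16.5 to 25.1) differed by less than 2-fold across groups. Ikbkg (14.1 to 45.6), Nfkbib (21.8 to 45.3), Relb (14.3 to 31.8) and Nfkbie (4.39 to 14.7) ranged further. Birc3, an NF-kB target that inhibits cell death, stood at 1.66, 17.6 and 7.19 FPKM in the Ago2+/+ groups and 22.9, 9.29 and 0.356 FPKM in the Ago2-/- groups. Its low groups were those that lacked Cxcl12, and those highest in Ccl5. In Ago2+/+, 3 of 15 were at least 2-fold higher and 0 lower under either stressor, with medians of 0.36 (tunicamycin) and 0.078 (thapsigargin); of all loci, 9.61% and 9.27% were higher and 8.29% and 7.54% lower. In Ago2-/-, 0 were higher and 4 (tunicamycin, median -0.19) or 5 (thapsigargin, median -0.77) were lower; of all loci, 11.6% and 8.21% were higher and 10.3% and 9.81% lower.

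**Figure D4:**
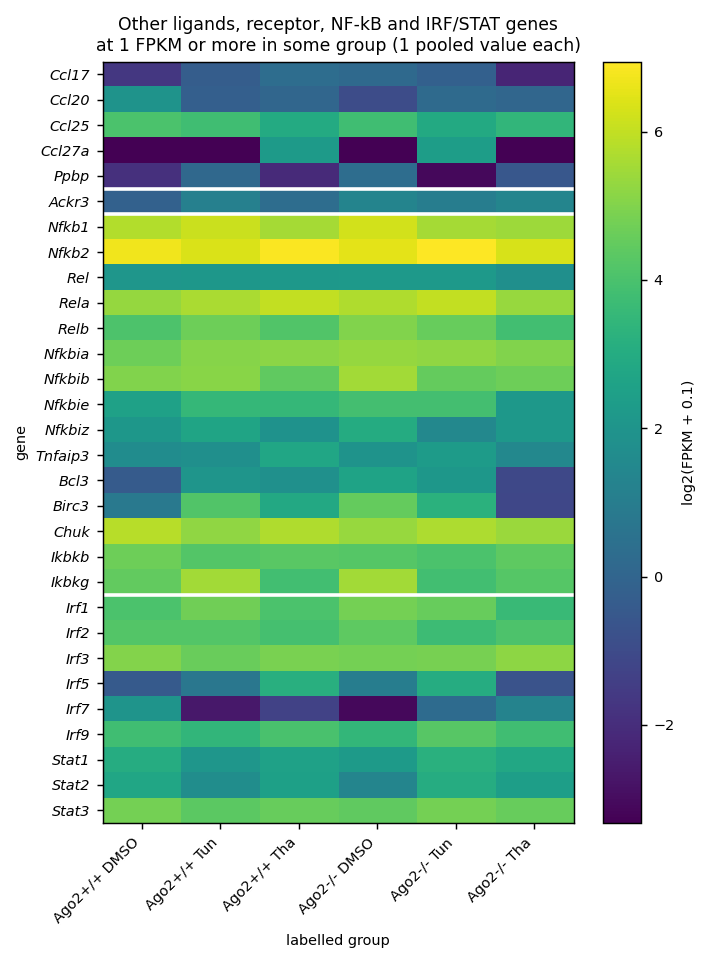
Log2(FPKM + 0.1) (colour) in the 6 labelled groups (columns; Tun tunicamycin, Tha thapsigargin) of genes that reach 1 FPKM in some group, from the lists of other ligands, receptors, NF-kB and IRF/STAT genes, in that order and divided by white lines. Irf7 is dark in Ago2+/+ tunicamycin and Ago2-/- DMSO (0.0575 and 0.0159 FPKM), and of the receptors Ackr3 alone appears.

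Other chemokine ligands were scarce. Of 28 examined, 5 reached 1 FPKM in some group and 8 were listed at 0 in all 6. Ccl25, in an interval shared with Elavl1, was the highest, between 7.42 and 16.4 FPKM. Ccl27a, a multicopy gene whose copies could split its reads, was listed at 0 in 4 groups and at 4.67 and 5.18 FPKM in Ago2+/+ thapsigargin and Ago2-/- tunicamycin, which are also the high groups of Ccl7 and Cxcl16. Ccl20 was at 3.80 FPKM in Ago2+/+ DMSO and at most 1.06 in the others. In the 7 comparisons, between 1 and 5 of the 28 were past 2-fold in each direction, where between 7.42% and 11.6% of all loci were, and the median difference was 0 in each comparison. Those loci average 1 FPKM or more, whereas 23 of the 28 stayed under 1 FPKM in every group. There the added 0.1 FPKM limits any difference, so the counts and the median do not show that these ligands were steady.

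Receptors for these ligands were nearly missing. Of 23 chemokine receptors, 1 reached 1 FPKM, the scavenger receptor Ackr3, which binds CXCL12 and lowers its free level, between 0.815 and 2.44 FPKM. Cxcr4, the signalling receptor of CXCL12, never passed 0.0603 FPKM, and Cx3cr1 never passed 0.0156. Ackr3 was at least 2-fold higher in Ago2+/+ tunicamycin than in Ago2+/+ DMSO (2.09 against 0.815 FPKM), and higher in Ago2-/- than in Ago2+/+ under DMSO (2.35 against 0.815). The next highest, Ccrl2 and Ackr2, never passed 0.0927 and 0.0733 FPKM. With 0.1 FPKM added to each value, no receptor other than Ackr3 could pass 2-fold, so their steadiness was not tested.

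Of 6 proteases that release or trim chemokines, 4 were expressed, while Dpp4, which trims the ends of several chemokines, never passed 0.0245 FPKM and Mmp9 never passed 0.961. Adam10 (30.4 to 39.3 FPKM) and Adam17 (16.0 to 24.1), which shed CX3CL1 and CXCL16, differed by less than 2-fold across the groups, while Cx3cl1 itself ranged 4.24-fold. Mmp14 and Mmp2, matrix metalloproteinases known to cut CXCL12 and CCL7, were higher in Ago2+/+ thapsigargin and Ago2-/- tunicamycin. Mmp14 was at 83.7 and 81.4 FPKM there and at 20.5 to 39.7 in the other groups. Mmp2 was at 18.9 and 23.5 FPKM there and at most 0.523 in the others. These are the groups high in Ccl7.

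The marker Cd14, a co-receptor for bacterial lipopolysaccharide found on monocytes and also on some fibroblasts, varied between groups too. It was at 14.4 and 16.7 FPKM in Ago2+/+ tunicamycin and Ago2-/- DMSO, the groups highest in Cxcl1, and at 2.40 to 5.60 in the other four. Its part in the chemokine values was not tested. In those groups Ptprc was at 0.0653 and 0.0379 FPKM and the macrophage marker Cd68 at 1.13 FPKM in both. Of the 6 epithelial markers, the keratins Krt8, Krt14 and Krt18 were highest in the same pair of groups, Krt14 at 0.599 and 0.673 FPKM and at most 0.0273 in the other four. Krt5, highest in Ago2+/+ tunicamycin, never passed 0.0348 FPKM. Cdh1 and Epcam ran otherwise, highest in Ago2-/- tunicamycin at 0.181 and 0.0977 FPKM. The part of these markers was not tested either.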

How the data were processed

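RNA from 18 MEF libraries was sequenced, and libraries were grouped by title. Per the submitters' processing notes and the study's methods, the authors used FastQC 0.11.7, HISAT2 2.1.0 with Ensembl release annotation on GRCm38, StringTie 1.3.4d for guided assembly and Cuffdiff 2.2.1. The deposited table holds 772485 rows, 51499 loci by 15 pairs of groups, with FPKM that the authors pooled to 1 value per group. Neither library scaling nor strandedness is given in the sources used here. The columns of the authors' own comparisons (fold changes, test statistics, p and q values) were not used.

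Each locus was read once per group. Coordinates were written 1-based, and gene positions come from the GRCm38 annotation. Differences are log2((FPKM + 0.1)/(FPKM + 0.1)), which understates the change of low genes. Members at least 2-fold apart were counted over all 10, beside 11929 loci averaging 1 FPKM or more over 6 groups. The counting was tested on simulated data. No test was made, because the values are pooled. Low values were searched for whole-read steps: at best 28.2% to 41.0% lay within 0.1 of a whole multiple, where 20% is expected without steps, so depth was not recovered and only limits precision by an unknown amount.

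The members and gene lists were chosen with earlier results of these data known. Named are all members; genes of each list with at least 10 FPKM in some group, or among its 3 highest; the 5 loci nearest Ccl5; and Ago2. Other genes named were chosen after their values were seen, namely Irf5, Irf7, Stat2, Dpp4, Mmp9, Cxcl11, Cxcr4, Cx3cr1, Ptprc, Dcn, Lum, Krt5, Cdh1, Epcam, Tnf, Il1b, Ifnb1 and marker genes at 0. The value of 1 leukocyte marker is not reported here. Promoters came from the RefSeq table on GRCm38.p6, which held 5 members. Alternatives were pseudocounts of 1 and 0.01 FPKM, centring, 4-fold, members with an interval of their own, and a wider set of loci. Python 3.11.15, pandas 2.3.3, numpy 2.4.6 and matplotlib 3.10.9 were used.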

Additional observations from a re-analysis of the deposited data

How the results depend on the processing

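The 25 counts of chemokines past 2-fold were recomputed under 6 alternatives. The count over both stressors together, and its alternatives, were added after seeing the data. Shares of loci under the alternatives are not given here, so these counts describe the members only and are not set against a background. Centring on the median of all loci moved none of the 25 by more than 1.5 times. Widening the loci to all those above 0 FPKM changes only the share of loci, so it could not move a count of members and tests none of them. With a pseudocount of 0.01 FPKM, 1 count moved: Ago2-/- tunicamycin against Ago2+/+ thapsigargin came to 2. With a pseudocount of 1 FPKM, 6 moved: lower under thapsigargin in Ago2+/+ came to 2, lower under tunicamycin in Ago2-/- to 1, lower in Ago2-/- under tunicamycin to 1, and the pairs of Ago2-/- DMSO with Ago2+/+ tunicamycin and thapsigargin and of Ago2-/- thapsigargin with Ago2+/+ DMSO to 0, 3 and 1. At 4-fold, 13 moved: the counts of lower chemokines came to 1 (Ago2+/+ thapsigargin), 0 (Ago2-/- tunicamycin), 2 (Ago2-/- thapsigargin), 0 (genotypes under tunicamycin) and 3 (under thapsigargin), the count higher in Ago2-/- under DMSO to 2, the same 3 pairs to 0, 4 and 1, the count higher in Ago2+/+ and lower in Ago2-/- to 0 with tunicamycin and 1 with thapsigargin, the reverse to 1 with thapsigargin, and to 1 (Ccl5) for lower in Ago2+/+ and higher in Ago2-/- with both stressors. Without Cxcl10, Ccl2 and Cxcl16, whose intervals hold other genes, 7 moved: lower under tunicamycin in Ago2+/+ and lower in Ago2-/- under DMSO to 1 each, higher under tunicamycin in Ago2-/- and against Ago2+/+ to 2 each, lower in Ago2-/- under thapsigargin to 3, and lower in Ago2+/+ but higher in Ago2-/- to 1 with tunicamycin and to 1 with both stressors. No difference past 2-fold changed direction among the 70 of the 10 genes in 7 comparisons; 11 fell short of 2-fold with a pseudocount of 1 FPKM, 1 after centring and 0 with 0.01 FPKM. By Pearson correlation, or with a pseudocount of 1 FPKM, 2 of the 5 loci nearest Ccl5 stayed among the nearest 5. No replicate could be left out, and no paired analysis was possible because the values are pooled per group and the result comes from no test.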

Other observations

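Among 12 inflammatory cytokines, Csf1, the growth factor of macrophages, was the most abundant. It stood at 70.7, 271.1 and 126.0 FPKM in the Ago2+/+ groups under DMSO, tunicamycin and thapsigargin, and at 257.9, 101.1 and 70.1 FPKM in the Ago2-/- groups. Its highest groups, Ago2+/+ tunicamycin and Ago2-/- DMSO, were those of Cxcl1. Lif ranged from 1.64 to 8.23 FPKM, and Il33 was above 1 FPKM in the same pair of groups only, at 4.25 and 2.47. Tnf and Il1b, inducers of chemokines made mainly by leukocytes, and Ifnb1 never reached 1 FPKM.

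Chemokine mRNAs such as Cxcl1 carry AU-rich elements that decay factors bind. The 7 listed genes for AU-rich binding proteins or other mRNA decay factors were all expressed. Zfp36l2, which promotes decay, was at 116.8 and 133.7 FPKM in Ago2+/+ tunicamycin and Ago2-/- DMSO and at 36.7 to 54.7 in the other four groups. Hnrnpd (277.2 to 413.3 FPKM), Khsrp (34.7 to 86.5), Elavl1 (46.0 to 65.3) and Zfp36l1 (10.1 to 14.5) made up the rest of those above 10 FPKM.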
